A study of Mus musculus with 3 samples.

Results

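The genes described here are 38 genes of protein folding in the endoplasmic reticulum (ER) and of the unfolded protein response (UPR), chosen by name from the 35824 genes of the count table. They were read in 3 libraries of mouse intestinal epithelial cells (IEC) from small intestinal organoids (SIO), and all 3 libraries are of 1 condition, IEC + ILC3. The organoids came from female CD45.1 C57BL/6 mice, labelled as 6 to 8 weeks old, and were cultured for 4 days with type-3 innate lymphoid cells (ILC3) of the small intestinal lamina propria of GFP reporter mice, in medium with IL-2, IL-7 and IL-15. IEC were then separated from ILC3 by FACS. SIO hold only the epithelium, so stroma and other immune cells of the gut are missing from the model. The libraries, called A, B and C, are labelled as biological replicates 1, 2 and 3. Whether they came from separate cultures or animals is not stated, so any p-value rests on a spread between these libraries that may be technical. That spread is partly borrowed from other genes. The labels keep A and B in the study's final analysis and leave C out of it. IEC cultured without ILC3 were not analysed here, so none of the values below is an effect of ILC3.

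Proteins that are secreted or sit in membranes enter the ER through the Sec61 channel, fold there with the help of chaperones and disulphide isomerases, and are sent back to the cytosol for degradation when folding fails. When unfolded proteins build up, the membrane sensors IRE1, ATF6 and PERK start the UPR. IRE1 splices Xbp1 RNA and ATF6 is cut to a transcription factor, and both arms raise chaperones and degradation factors, while PERK phosphorylates eIF2alpha, which favours translation of ATF4 and then transcription of ATF4 targets. In the gut, Paneth and goblet cells secrete much protein, and XBP1 and the mucosal sensor IRE1beta are known to act there. Gene counts show neither the splicing of Xbp1 nor the phosphorylation or cleavage of the sensors, so the levels below are not measures of pathway activity. In RNA from mixed epithelium, fewer cells of a type and less RNA per cell cannot be told apart.

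Library A held 17946361 counts, B 23142849 and C 28913885. Genes with at least 10 counts numbered 12549 in A, 12964 in B and 11986 in C. C was thus the deepest library and held the fewest such genes, and the reason was not tested. All 38 genes had at least 68 counts in every library, and all 38 entered the test of library C against the pair of A and B (by edgeR, with genes called at an adjusted p under 0.1). Of all 13604 genes tested, 892 were called (6.56%), 185 higher in C (1.36%) and 707 lower (5.2%), while 37.3% lay above both A and B in C and 41.2% below both. Together the 38 genes made up 1.05%, 1.03% and 1.17% of A, B and C. Levels are given as CPM, a gene's counts relative to the library's total, scaled with edgeR's TMM factors, and levels of different genes are compared only in CPM per kilobase of transcript. Over all genes, A and B had a median absolute log2 difference of 0.33, the pair A and C 0.50 and the pair B and C 0.57. Epithelial markers were abundant, with the simple epithelial keratin Krt8 at 4884, 5405 and 5837 CPM in A, B and C, Krt19 at 2186, 2045 and 2827 CPM, and Epcam, the adhesion molecule used in the sort, at 1664, 1721 and 1133 CPM. Among lymphocyte and ILC3 markers, Il22, Il2rg and Cd3e had no count in any library, Ptprc reached at most 0.0552 CPM and Thy1 at most 3.77 CPM.

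By class median, the translocon was highest, at 217, 239 and 193 CPM per kilobase in A, B and C, followed by the folding factors. P4hb, the founding protein disulphide isomerase, stood highest of all 38 at 1063 ± 172 CPM per kilobase (SD, n = 3), rank 104 of 11197 genes with at least 10 counts in every library. Next came the disulphide isomerase Pdia3 at 493 ± 146 CPM per kilobase (SD, n = 3), the transcription factor Xbp1 at 449 ± 28.5 and the chaperone Hspa5, or BiP, at 449.6 ± 115. The spreads of Pdia3, Xbp1 and Hspa5 overlap, so their order is not settled by these libraries. At the other end were the degradation factor Derl3 at 3.87 ± 1.18 CPM per kilobase, Sesn2 at 4.19 ± 2.25 and the sensor Atf6 at 4.74 ± 0.249, whose spreads also overlap. These values rest on the median length of each gene's coding transcripts in the annotation. With the longest transcript instead, a choice made after the data were seen, the mean of 11 of the 38 genes moved by more than its spread between libraries. P4hb was still highest by its mean (674 CPM per kilobase), but Xbp1 was at 232 and Ern1, at 1.39, was then the lowest of the 38.

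**Figure D1:**
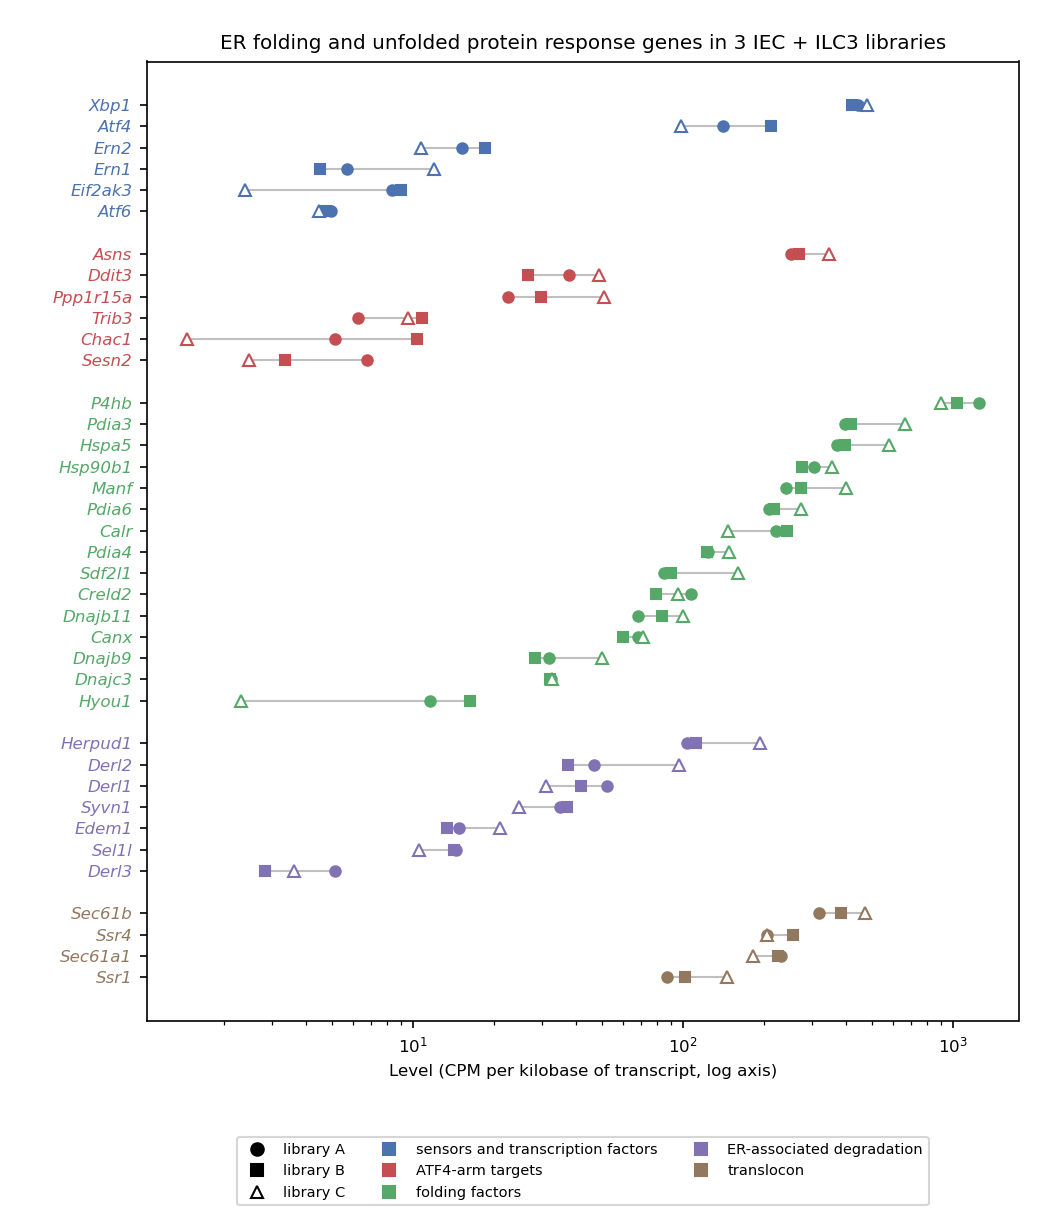
Level of each gene in CPM per kilobase of transcript (log axis) in the 3 IEC + ILC3 libraries. Filled circles are library A, filled squares B and open triangles C, a grey line joins the lowest and the highest library, and colours mark the 5 classes. P4hb, at 904 to 1246 CPM per kilobase, is the highest gene in every library, and Hyou1, Eif2ak3 and Chac1 have their open triangle far to the left.

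Folding factors and ATF4-arm targets lay apart in level in every library. The median folding factor was at 124, 122 and 148 CPM per kilobase in A, B and C, and the median ATF4-arm target at 14.6, 18.7 and 29.1. On the log2 scale, with 0.1 added to each level, the folding median exceeded the ATF4-arm median by 3.32, 2.84 and 2.77 in turn, a mean of 2.98 ± 0.30 (SD, n = 3). The classes were not cleanly separated. Asns was the highest ATF4-arm gene in each library, at 251, 268 and 346 CPM per kilobase, above most folding factors. Leaving Asns aside, 12 of 15 folding factors (A), 13 (B) and 12 (C) lay above every ATF4-arm target. Hyou1 was the lowest folding factor in all 3. The medians rest on lists of 15 and 6 genes chosen by name, and no test was run over them.

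**Figure D2:**
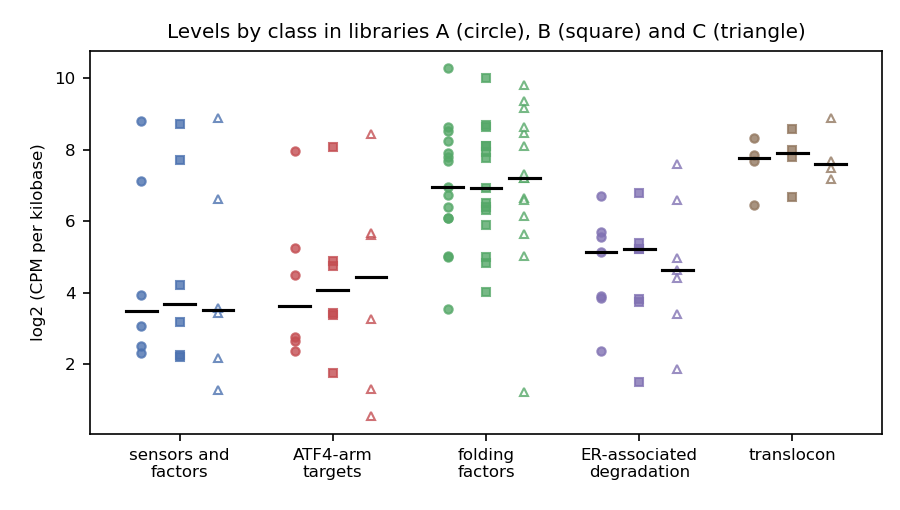
Level of each gene as log2 (CPM per kilobase), by class and library. Circles are library A, squares B and open triangles C, and black bars are class medians; the folding median is 124, 122 and 148 CPM per kilobase in A, B and C and the ATF4-arm median 14.6, 18.7 and 29.1.

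Among the chaperones and disulphide isomerases, Hspa5, the ER member of the Hsp70 family that also restrains the UPR sensors, had 1163 (A), 1249.8 (B) and 1826 CPM (C). It lies on chromosome 2 from 34771970 to 34777547 of GRCm38. Hsp90b1, the ER member of the Hsp90 family, had 602 (A), 543 (B) and 701 CPM (C). The isomerases Pdia4 and Pdia6 had 298 (A), 294 (B) and 355 CPM (C), and 451 (A), 474 (B) and 596 CPM (C). All 4 were highest in C, while A and B differed little and not always in the same direction. Pdia3, which works on glycoproteins with the lectins Calr and Canx, had 1106 (A), 1158 (B) and 1832 CPM (C). P4hb had 2262 (A), 1884 (B) and 1642 CPM (C), the reverse order of libraries. Of the lectins, the soluble Calr had 484 (A), 531 (B) and 321 CPM (C), and the membrane-bound Canx 273 (A), 241 (B) and 287 CPM (C). In C, Calr thus lay below both A and B and Canx just above both, and neither difference passed edgeR's test at 0.1 (adjusted p = 0.232 for Calr and 0.773 for Canx).

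The smaller cofactors were also measured well above their counting error. Sdf2l1, a partner of ER Hsp40 proteins, had 94.2 (A), 100.3 (B) and 177 CPM (C). Manf, a secreted ER stress protein, had 131 (A), 149 (B) and 219 CPM (C). In both genes C was the high library, and for Sdf2l1, the folding factor with the highest positive fold change, it did not pass the test (log2 fold change 0.86 with SE 0.27, adjusted p = 0.127, edgeR). The Hsp40 co-chaperone Dnajb9 had 45.3 (A), 40.3 (B) and 71.4 CPM (C), and Dnajb11 121 (A), 149 (B) and 178 CPM (C). Creld2, an ER stress-inducible disulphide isomerase, had 146 (A), 109 (B) and 131 CPM (C), with C between the others. Dnajc3, a co-chaperone also known as p58IPK, had 167 (A), 166 (B) and 168 CPM (C). Dnajc3 was the steadiest of the 38, with an SD of 0.0088 on the log2 scale over the 3 libraries.

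Hyou1 stood apart from the rest of the class. HYOU1, also called GRP170, is the large Hsp70-like protein that exchanges nucleotide on BiP. The gene lies on chromosome 9 from 44379490 to 44392369 of GRCm38 and was counted 706, 1265 and 223 times in A, B and C. Its levels were 39.0 (A), 54.7 (B) and 7.78 CPM (C). C lay at 0.166 of the A and B mean, and the exact 95% Poisson intervals of A (36.1 to 42.0 CPM) and C (6.79 to 8.87 CPM), which cover counting error only, were far apart. Hyou1 passed the test (log2 fold change -2.59 with SE 0.41, adjusted p = 0.0283, edgeR). The level of Hspa5 per kilobase was 32.1 times that of Hyou1 in A, but 24.5 times in B and 252 times in C. In C the disulphide isomerase Pdia3 and Hspa5 were both the highest of the 3 libraries while Hyou1 was the lowest.

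Promoters of 7 folding factors hold a sequence element of the UPR. Folding factors were classed as XBP1- and ATF6-type genes, and these factors bind the element, so the choice of genes was not independent of it. RefSeq promoter windows of GRCm38.p6, from 250 bases before to 50 after the start of transcription, were available for 32 of the 38 genes, and were searched on both strands for exact matches. The ER stress response element (ERSE), the letters CCAAT and CCACG with any 9 bases between them, or on the other strand CGTGG and ATTGG so spaced, is bound by NF-Y with ATF6 or XBP1. It was found in 39 of all 32851 windows (0.119%), and 9 of the 38 genes hold one: 7 of 13 folding factors with a window, 2 of 6 degradation factors, and none of the 4 sensors and transcription factors, 6 ATF4-arm targets and 3 translocon genes. The matches are shown with 10 flanking bases on each side in lower case, the match in capitals, and each written along the gene's strand.
Hspa5, chr2:34772015-34772053, plus strand: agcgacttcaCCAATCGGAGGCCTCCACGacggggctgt
Hsp90b1, chr10:86705628-86705666, minus strand: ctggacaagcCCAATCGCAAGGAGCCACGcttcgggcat
Hsp90b1, chr10:86705523-86705561, minus strand: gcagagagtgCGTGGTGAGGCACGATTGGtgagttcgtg
Calr, chr8:84847065-84847103, minus strand: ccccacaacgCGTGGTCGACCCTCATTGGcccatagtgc
Canx, chr11:50325790-50325828, minus strand: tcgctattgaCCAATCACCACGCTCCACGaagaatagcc
Pdia6, chr12:17266481-17266519, plus strand: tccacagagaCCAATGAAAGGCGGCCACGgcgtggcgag
Dnajc3, chr14:118937817-118937855, plus strand: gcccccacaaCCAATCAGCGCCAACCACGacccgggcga
Creld2, chr15:88819510-88819548, plus strand: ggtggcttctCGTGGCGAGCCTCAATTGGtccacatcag
Syvn1, chr19:6046522-6046560, plus strand: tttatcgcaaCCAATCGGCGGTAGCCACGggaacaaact
Derl3, chr10:75893232-75893270, plus strand: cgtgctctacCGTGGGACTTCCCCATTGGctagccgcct
Hsp90b1 holds a match in each orientation. Among the 9 genes with ERSE, C lay above both A and B in 5 and below both in 2, and their log2 fold changes in C ran from -0.66 for Calr to 0.60 for Hspa5 with a median of 0.04, and none of the 9 was called. No matches of different motifs overlapped in these genes. An exact match is a description of letters and not a measured binding site.

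The part of the Hspa5 window before the RefSeq start of transcription, chr2:34771840-34772089 on the plus strand, is given in full because it is the textbook ER stress promoter, with its exact ERSE in capitals. The gene start given above, 34771970, comes from another annotation and lies before the ERSE. By that annotation the end of this stretch, with the ERSE, is inside the gene.
Hspa5: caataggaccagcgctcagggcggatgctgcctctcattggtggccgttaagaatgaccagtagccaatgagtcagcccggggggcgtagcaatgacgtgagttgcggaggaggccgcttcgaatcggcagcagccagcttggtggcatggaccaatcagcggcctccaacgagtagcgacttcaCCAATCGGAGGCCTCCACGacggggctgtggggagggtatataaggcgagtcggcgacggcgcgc

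**Figure D3:**
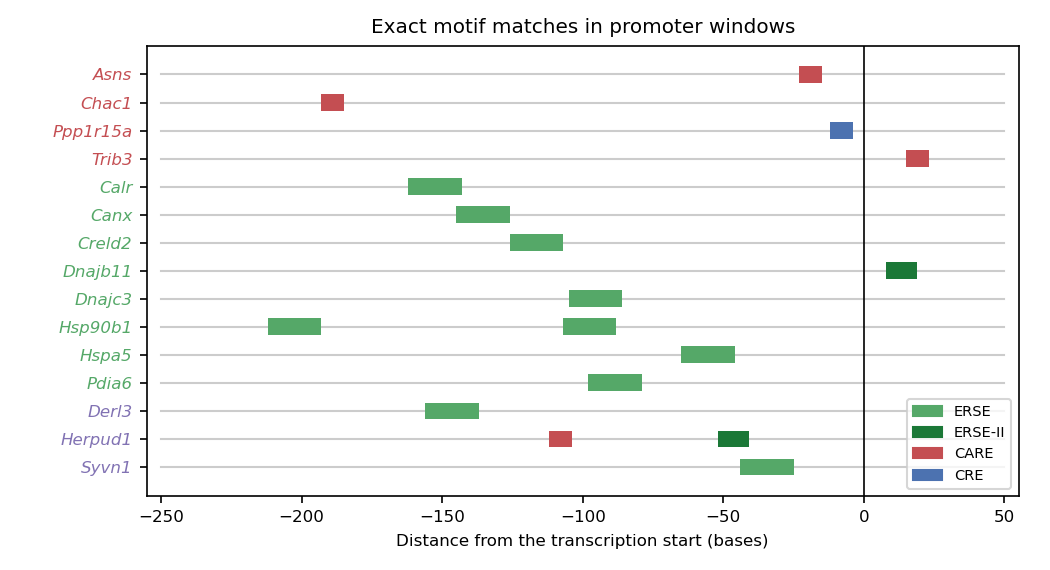
Position of exact motif matches in the promoter windows of the genes that hold one, in bases from the RefSeq start of transcription (vertical line). Each grey line is 1 window of 250 bases before and 50 after the start, gene names are coloured by class as in the plot of levels, and ERSE matches appear in folding and degradation genes while CARE matches appear in Asns, Chac1, Trib3 and Herpud1.

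Of the sensors, the common IRE1 gene Ern1 and the mucosal IRE1beta gene Ern2 had opposite orders of libraries. Ern2 had 44.2 (A), 53.6 (B) and 31.2 CPM (C), and Ern1 7.45 (A), 5.93 (B) and 15.6 CPM (C). Per kilobase, the ratio of Ern2 to Ern1 was 2.66, 4.06 and 0.896 in A, B and C. Neither gene passed the test of C (for Ern1 log2 fold change 1.22 with SE 0.53, adjusted p = 0.221, edgeR, and for Ern2 adjusted p = 0.278). The longest Ern1 transcript has 6946 bases against a median of 1308.5, and with the longest transcripts of both genes the ratio was 14.1, 21.6 and 4.76, so which of them was higher in C depends on the length taken. Under either length the ratio was lowest in C. Beside Ern2, the 7 goblet markers summed to 2309.9, 2852 and 1550.4 CPM. Muc2, Fcgbp, Clca1 and Zg16 were called lower in C, as were 5.2% of all genes tested. Tff3, Spdef and Agr2 were not called, and Agr2 was highest in C, at 445, 367 and 585 CPM in A, B and C. The part of goblet cells in the Ern2 values was not tested.

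Eif2ak3, which encodes PERK, was called lower in C. It lies on chromosome 6 from 70844515 to 70905245 of GRCm38 and was counted 411, 568 and 186 times in A, B and C. Its levels were 22.7 (A), 24.6 (B) and 6.49 CPM (C). A and B were close to each other, and C lay at 0.275 of their mean (log2 fold change -1.86 with SE 0.46, adjusted p = 0.0811, edgeR). It did not pass at 0.05. Atf6, the membrane-bound transcription factor of the third arm, was even across libraries with 36.0 (A), 34.6 (B) and 32.4 CPM (C).

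Of the transcription factors of the response, Xbp1 had 489.8 (A), 465 (B) and 527 CPM (C), a mean of 494 ± 31.3 CPM (SD, n = 3), and lies on chromosome 11 from 5520659 to 5525893 of GRCm38. Atf4 had 168 (A), 252 (B) and 117 CPM (C), a mean of 179 ± 67.8 CPM (SD, n = 3), so its libraries were further apart. Per kilobase, the ratio of Xbp1 to Atf4 was 3.17, 2.00 and 4.87 in A, B and C. The difference of Atf4 in C (log2 fold change -0.84 with SE 0.34, adjusted p = 0.204, edgeR) did not pass at 0.1.

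By median SD on the log2 scale (0.52), ATF4-arm targets varied more between libraries than any other class of the 38 genes. Asparagine synthetase, Asns, had 228 (A), 243 (B) and 314 CPM (C). Ddit3, which encodes the pro-apoptotic factor CHOP, had 28.1 (A), 19.8 (B) and 36.3 CPM (C), and Ppp1r15a, which encodes the eIF2alpha phosphatase subunit GADD34, had 52.6 (A), 69.2 (B) and 119 CPM (C). These 3 were highest in C. Mars overlaps Ddit3 on the opposite strand, and SMART-Seq2 does not tell strands apart. Mars was at 198 (A), 157 (B) and 178 CPM (C), far above Ddit3, and was not called. Its part in the Ddit3 counts was not tested. Chac1, a glutathione-degrading enzyme, had 8.39 (A), 16.97 (B) and 2.37 CPM (C), and Sesn2, a stress-inducible regulator of mTORC1, had 23.4 (A), 11.7 (B) and 8.58 CPM (C), and these were lowest in C. Trib3, a pseudokinase that restrains ATF4 and CHOP, had 12.6 (A), 21.9 (B) and 19.3 CPM (C), with C between A and B. A and B already lay apart, as Chac1 and Trib3 were higher in B by 1.01 and 0.79 on the log2 scale and Sesn2 was at -0.996 of B minus A on the same scale, with no replicate check on a pair of libraries. The median absolute log2 difference between A and B was 0.64 for the 6 ATF4-arm targets, 0.15 for the 15 folding factors and 0.31 for the 9968 tested genes at or above the lowest mean CPM of the 38. The 29 other ATF4-type genes described below did not share this spread. Their median difference was 0.23 and their median SD 0.31, against a median SD of 0.38 for the 9968 genes. ATF4-arm targets had a lower median level than folding factors, and no comparison at matched levels was made.

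None of the 6 ATF4-arm targets passed the test of C at an adjusted p under 0.1, and 2 had an unadjusted p under 0.05 (22.3% of all genes tested did). Chac1 came closest (log2 fold change -2.42 with SE 0.72, adjusted p = 0.113, edgeR), then Ppp1r15a (log2 fold change 0.97 with SE 0.30, adjusted p = 0.122, edgeR). DESeq2's Wald test called both, with an adjusted p of 0.0330 for Chac1 and 0.0843 for Ppp1r15a, and over all alternative fits the adjusted p ran from 0.0142 to 0.131 and from 0.0283 to 0.130. For Sesn2 (log2 fold change -1.03 with SE 0.57, adjusted p = 0.318, edgeR), the log2 difference of C was -0.44 without library A and -1.44 without B. The 8 dissociation and heat stress genes summed to 4142, 4117 and 4563 CPM in A, B and C, with Dusp1 called higher in C and Hspa1a lower, and the part of cell handling in the ATF4-arm values was not tested.

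The promoters of 3 of the 6 ATF4-arm targets hold the letters of the C/EBP-ATF response element (CARE), TGATGNAA or its reverse complement TTNCATCA, to which ATF4 binds with C/EBP factors. These genes were classed as targets of ATF4, so the choice of genes was not independent of the element. The element was present in 3.97% of all windows, in Asns, Chac1 and Trib3 of this class, in none of the 13 folding factors with a window, and in Herpud1 of the degradation class. The palindromic CRE, TGACGTCA, was found in the window of Ppp1r15a and in 1.79% of all windows, and the UPR element UPRE, TGACGTGG, in none of the 32 genes and in 0.676% of all windows. The matches of Asns and Chac1 are shown to set beside ERSE, again with the match in capitals.
Asns, chr6:7693215-7693242, minus strand: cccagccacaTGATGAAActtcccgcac
Chac1, chr2:119351039-119351066, plus strand: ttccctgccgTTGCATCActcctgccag
The match of Trib3 lies 15 to 22 bases after its start of transcription. Asns and Chac1, which share the element, had log2 fold changes of 0.41 and -2.42 in C, of which neither passed the test.

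Among the ER-associated degradation factors, the derlins, channel proteins of the retrotranslocation machinery, differed in their order of libraries. Derl2 had 68.5 (A), 54.8 (B) and 141 CPM (C), and lies on chromosome 11 from 71007164 to 71019841 of GRCm38. It was the single gene of the 38 called higher in C (log2 fold change 1.199 with SE 0.29, adjusted p = 0.0761, edgeR), a call lost at a threshold of 0.05. Mis12 overlaps Derl2 on the opposite strand, where SMART-Seq2 does not tell strands apart. Mis12 was at 44.0, 36.7 and 45.8 CPM and was not called. Derl1 had 165 (A), 133 (B) and 98.6 CPM (C), and Derl3 6.79 (A), 3.72 (B) and 4.78 CPM (C). The 95% Poisson interval of Derl3 was 5.64 to 8.10 CPM in A and 4.01 to 5.65 CPM in C, so these intervals just overlap. Sel1l and Syvn1, which form the core ubiquitin ligase of the pathway, had 88.9 (A), 86.9 (B) and 64.5 CPM (C), and 110.2 (A), 118 (B) and 77.8 CPM (C). Both were lowest in C without passing the test (adjusted p = 0.376 and 0.293, edgeR). Edem1, a mannose-trimming lectin, had 86.2 (A), 78.0 (B) and 123 CPM (C).

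Herpud1, a membrane protein that gathers the degradation machinery and is induced by several arms of the UPR, had 194 (A), 208 (B) and 362 CPM (C). Its promoter was the only one of the 32 to hold both an ERSE-II (ATTGG, any base and CCACG, found in 12 of all 32851 windows, or 0.0365%) and a CARE, and its part before the start of transcription, chr8:94386179-94386428 on the plus strand, is given with both in capitals, the CARE first.
Herpud1: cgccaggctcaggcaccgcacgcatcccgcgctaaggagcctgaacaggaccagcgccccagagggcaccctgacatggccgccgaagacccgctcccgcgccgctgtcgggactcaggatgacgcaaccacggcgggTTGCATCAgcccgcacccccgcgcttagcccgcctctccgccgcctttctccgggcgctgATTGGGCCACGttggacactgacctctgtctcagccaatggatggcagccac
The other gene with an ERSE-II was Dnajb11, 8 to 18 bases after its start. Herpud1 was not called in C (log2 fold change 0.85 with SE 0.27, adjusted p = 0.134, edgeR), and was called by DESeq2's Wald test with an adjusted p of 0.0572 (0.0545 to 0.137 over all alternative fits).

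In the translocon, Sec61a1, the channel subunit, had 729.6 (A), 710.4 (B) and 575 CPM (C), and the small subunit Sec61b had 137 (A), 166 (B) and 203 CPM (C). Ssr1 and Ssr4, subunits of the translocon-associated TRAP complex, had 149 (A), 174 (B) and 249.7 CPM (C), and 160.3 (A), 199 (B) and 160.2 CPM (C). C was the low library for Sec61a1 and the high one for Sec61b and Ssr1, while in Ssr4 it stood level with A. None passed the test, and partners of the same complex did not share an order of libraries.

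Across the 38 genes, 3 were called in C at an adjusted p under 0.1, Derl2 higher and Hyou1 and Eif2ak3 lower. Against 6.56% of all genes tested, this share is near the background and is not a result about the 38 genes. C lay above both A and B for 21 of the 38 genes (37.3% of all genes tested) and below both for 14 (41.2%). By class, C was the high library for 11 of 15 folding factors and the low one for 3. The high and low counts were 3 and 2 of 6 for ATF4-arm targets, 3 and 3 of 7 for degradation factors, 2 and 2 of 4 for the translocon, and 2 and 4 of 6 for sensors and transcription factors. The median log2 fold change was 0.29 for folding factors, 0.29 for ATF4-arm targets, -0.13 for degradation factors, 0.13 for the translocon and -0.39 for sensors and transcription factors, against -0.10 for all genes tested and 0.02 for those at or above the lowest mean CPM of the 38. Leaving out A or B moved the median to between 0.10 and 0.42 for ATF4-arm targets, to between -0.46 and 0.35 for degradation factors and to between -0.01 and 0.28 for the translocon, so the sign of the last pair of classes rests on single libraries. In folding factors 12 of 15 fold changes were positive, while in ATF4-arm targets the same median came from 4 positive and 2 strongly negative values. The test compares 1 library with a pair, leaves 1 residual degree of freedom and says nothing of conditions, and an exact permutation test of 1 library against 2 cannot give a p below 0.333.

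**Figure D4:**
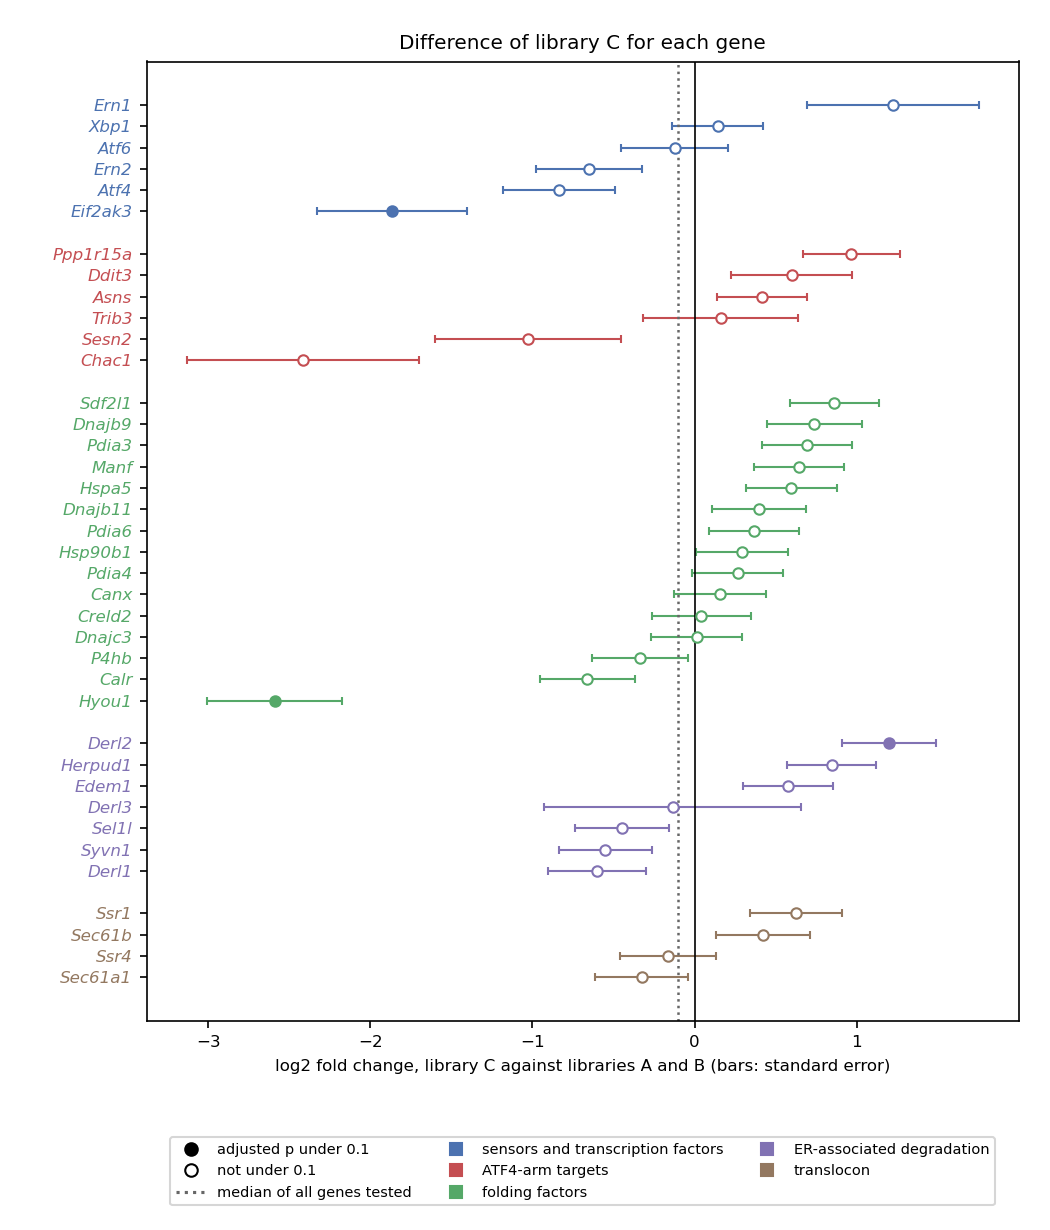
Log2 fold change of library C against libraries A and B for each gene, with bars of 1 standard error, from edgeR's quasi-likelihood test. Filled points have an adjusted p under 0.1 (Derl2, Eif2ak3 and Hyou1), the solid line marks 0 and the dotted line the median of all genes tested, -0.10; most folding factors lie to the right of it and Hyou1 far to the left.

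The summed level of the 15 folding factors was 7382, 7143 and 8512 CPM in A, B and C. Beside it, the 6 Paneth markers summed to 13014, 17330.4 and 19726 CPM, and the 6 enterocyte markers to 4808, 3387 and 4200.4 CPM. The order of the Paneth sums was not that of the folding sums, since A exceeded B in folding factors, and the part of cell type in these sums was not tested. No Paneth or enterocyte marker was called in C by edgeR. The closest were 2 enterocyte markers of opposite direction. Sis was lower in C (log2 fold change -1.17, adjusted p = 0.101, edgeR) and Fabp1 higher (log2 fold change 1.06, adjusted p = 0.111, edgeR). Of the 15 folding factors 6 had the order of the Paneth sum, with A lowest and C highest, and 9 did not (15.3% of all genes tested had it). Only 4 of the 6 Paneth markers had it themselves, as Lyz1 was lowest in C at 3219, 3627 and 2636 CPM and Mmp7 was highest in B.

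Of 38 further genes of the secretory pathway, all were tested and 3 were called in C, 1 higher and 2 lower. This share is near the 6.56% of all genes tested and is not a result about the list. By the mean over libraries, the most abundant per kilobase were Stt3a, the catalytic subunit of oligosaccharyltransferase, at 709, 573 and 812 CPM per kilobase in A, B and C, Ssr2 of the TRAP complex at 612, 582 and 673, and Agr2, the disulphide isomerase needed for Muc2, at 568, 468 and 746. On the longest transcript Stt3a, with 5867 bases against a median of 639.5, had a mean of 76.1 CPM per kilobase, below Agr2 at 594 and Ssr2 at 298. Selenos, a selenoprotein that couples derlins to the p97 segregase, was higher in C with 123 (A), 111 (B) and 273 CPM (C) (log2 fold change 1.22 with SE 0.27, adjusted p = 0.0632, edgeR). Kdelr1, a receptor that returns ER proteins from the Golgi, was lower with 111 (A), 112 (B) and 50.5 CPM (C) (log2 fold change -1.15 with SE 0.30, adjusted p = 0.0888, edgeR), as was Wfs1, a membrane protein induced by ER stress, with 20.1 (A), 21.3 (B) and 5.23 CPM (C) (log2 fold change -1.98 with SE 0.49, adjusted p = 0.0816, edgeR). All 3 calls were lost at a threshold of 0.05. With a GC content trend removed, Kdelr1 was at -1.04 (adjusted p = 0.102) and Wfs1 at -1.70 (0.104) on the log2 scale, and with a length trend removed Wfs1 was at -1.76 (0.107), so these edgeR values passed the threshold no longer while the fold changes stayed of similar size.

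Of 29 other ATF4-type genes, 27 were tested and 2 were called, both lower in C. Of all genes tested, 6.56% were called and 5.2% called lower, so this share too is near the background. Vldlr, a lipoprotein receptor, had 21.8 (A), 20.3 (B) and 2.97 CPM (C) (log2 fold change -2.82 with SE 0.53, adjusted p = 0.0434, edgeR). Gpt2, the mitochondrial alanine transaminase, was counted 196 times in A, 211 in B and never in C. The A and B mean of Gpt2, 9.98 CPM, was 95.3-fold above the level of 3 counts in C (adjusted p = 0.0180, edgeR). The exact 95% Poisson upper limit of Gpt2 in C was higher than that level, at 0.129 CPM. A lack of counts in C was not particular to Gpt2, as the markers Vim and Hspa1a also had 0 counts there. Fgf21 and Jdp2 had no count in any library. By the mean over libraries, the most abundant genes were the proline synthesis enzyme Aldh18a1 at 514, 503 and 453 CPM per kilobase, the amino acid transporter heavy chain Slc3a2 at 385, 451 and 388, and the serine synthesis enzyme Phgdh at 242, 239 and 190. Nars, an aminoacyl-tRNA synthetase, followed at 217 ± 90.2 (SD, n = 3) against 223 ± 29.3 for Phgdh and was above it in C, and on the longest transcript the mean of Aldh18a1 was 77.3, below Phgdh at 138. Of these 27 genes 9 had a positive log2 fold change in C and 18 a negative one, with a median of -0.11. The CARE was present in 9 of the 25 with a promoter window, against 3.97% of all windows. This list too was chosen as ATF4-type, so its choice was not independent of the element.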

How the data were processed

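The authors trimmed reads of SMART-Seq2 libraries with Trimmomatic 0.39, quantified transcripts of Ensembl GRCm38.p6 with Salmon 0.14.1 (versions also in the submitters' processing notes) and imported gene sums with tximport. What was deposited are estimated counts per gene, already whole numbers, so none was rounded. Symbols, positions, lengths and GC content came from GENCODE M21, an annotation of the same genome build, which matched 35436 of the 35824 gene IDs, and the release differs from the one the authors counted with. Ddit3 has a second gene ID of a short model, with 2 counts in B and none in A and C, which was left out. A protein coding gene overlaps 7 of the 38 genes, and how shared reads were divided is not stated.

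CPM were scaled with TMM factors of edgeR 4.0.16 in R 4.3.3, and CPM per kilobase used the median length of coding transcripts. The test of C against the other libraries was edgeR's quasi-likelihood F test after filterByExpr, Benjamini-Hochberg adjusted over all 13604 genes at 0.1, the study's threshold. The standard error is the log2 fold change over the square root of F. With 1 residual degree of freedom, edgeR's fit draws each gene's spread towards that of all genes. Dnajc3, for example, had a log2 difference of -0.0090 for B minus A and a standard error of 0.28. On simulated counts for this comparison (200 genes changed in each of 3 runs, 13138 to 13145 genes tested), 56.7% of 4-fold and 79.7% of 16-fold changes were recovered, and 8.98% of calls were false. For A and B the chi-square per gene was 81.7, so they are not copies of 1 library. Poisson intervals are at 95%. Promoters came from RefSeq (GRCm38.p6), with no window for Derl1, Manf, Atf6, Hyou1, Sec61a1 and Ern2, and other spellings of CARE were also looked at. Of the lymphocyte and ILC3 markers, 1 is not reported here. The 38 genes, their classes and all lists were chosen with earlier results of these data known. Of the 38 genes all are named, with the test given for those called and the 5 next largest fold changes, plus others mentioned for contrast after their values were seen. Of the added lists, those called and the 3 most abundant per kilobase are named. Some others were named besides, such as the kinase genes of the eIF2 group. Alternatives were DESeq2 1.42.0 size factors and Wald test, plain totals, stricter or no filtering of low counts, a threshold of 0.05, trends with length or GC content removed by loess with a span of 0.5, other transcript lengths and pseudocounts, and leaving out libraries. Python 3.11.15 (pandas 2.3.3, numpy 2.4.6, matplotlib 3.10.9, scipy 1.17.1) was used for tables and plots.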

Additional observations from a re-analysis of the deposited data

How the results depend on the processing

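The calls of Hyou1, Eif2ak3 and Derl2 in C were kept with DESeq2 size factors, plain totals, either filter, both trend removals and the DESeq2 Wald test. Over all genes, 892 calls became 2402 with no filter, 1740.0 with the DESeq2 Wald test and 276 at a threshold of 0.05. The number called among the 38 genes was 8 with no filter (13.8% of all genes tested), 7 with the DESeq2 Wald test (13.1%), 6 with a filter of 10 counts in every library (9.17%), 5 with the GC trend removed (6.34%) and 1, Hyou1, at a threshold of 0.05 (2.03%). The calls beyond the first 3 were of Chac1, Ppp1r15a, Sdf2l1, Herpud1 and Atf4. With the length or GC trend removed, the median log2 fold change of sensors and transcription factors was -0.22 or -0.28. That of folding factors was 0.27 with plain totals, 0.38 with the length trend and 0.25 with the GC trend removed, and 0.25 to 0.28 when A or B was left out. That of degradation factors had no stable sign, with 0.12 when the GC trend was removed and -0.46 to 0.35 when A or B was left out, and that of the translocon ran from -0.01 to 0.28, that of ATF4-arm targets from 0.10 to 0.42 and that of sensors from -0.44 to -0.33. Without A or B no residual degree of freedom is left, so these are values with no test. The folding factors exceeded ATF4-arm targets by a median of 3.46 on the log2 scale in CPM without length, and by 2.81 to 3.08 when 1 library was left out. The median CPM over the 38 genes was 137.5 to 151 when 1 library was left out. Each gene's mean CPM stayed within its SD in all 190 alternative values, which decides nothing. Leaving out 1 of 3 libraries cannot move a mean by more than that SD. The other values only changed the scaling, where the TMM factors were already 0.991 to 1.01. The cause of these shifts was not tested. No paired analysis was possible because all libraries belong to 1 group. Counts of under 100 in a library limit Chac1 and Derl3 most.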

Other observations

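The eIF2 kinases other than PERK and the eIF2 phosphatase and exchange factor genes formed a further group of 11 genes around the ATF4 arm. C lay above both A and B in 9 of them and below both in 2 (37.3% and 41.2% of all genes tested). By edgeR, 0 were called at an adjusted p under 0.1 (6.56% of all genes tested) and 2 had an unadjusted p under 0.05 (22.3%). DESeq2's Wald test called 1 (13.1%). Eif2s1, the eIF2alpha subunit that these kinases phosphorylate, was at 228, 152 and 371 CPM in A, B and C. Ppp1ca, a catalytic phosphatase subunit that works with GADD34, was at 594, 594 and 923 CPM, and Ppp1r15b, its constitutive partner, 93.8, 110.3 and 65.7 CPM. Of the kinase genes, Eif2ak1 was at 95.7 (A), 81.6 (B) and 79.3 CPM (C), lowest in C. Eif2ak2 and Eif2ak4, which encode PKR and GCN2, were at 24.0 and 10.7 CPM in A, 24.4 and 13.6 in B and 31.2 and 14.9 in C. Per kilobase, the means of Eif2ak1, Eif2ak2 and Eif2ak4 were 19.8, 6.15 and 2.66 CPM. The exchange factor subunits Eif2b1 and Eif2b5 had 250.4 and 91.1 CPM per kilobase in A, 172 and 124 in B and 292 and 132 in C, or means of 73.8 and 54.8 on the longest transcript.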
